A study of Rattus norvegicus with 3 samples.

Results

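The genes described here encode the splicing machinery and its nuclear RNA-binding partners, measured in RNA from the rat adrenal medulla during cold exposure. Members were all genes whose single annotated symbol begins with Hnrnp, Srsf (or the older Sfrs), Sf3a, Sf3b, Snrp, U2af, Prpf, Celf or Elavl, with Snrpn left out. The rule found 69 genes, measured by 121 probe sets, among 14217 genes with a single symbol. Each gene was represented by 1 probe set, the one of highest mean log2 value over the 7-day array and 1-day array b. No difference between arrays was used in that choice. Among them Srsf7-ps4 is a pseudogene by its name. A further 6 probe sets carry several symbols at once, among them Hnrnpk, Snrpc, Snrpg and Srsf3, and were not used.

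Each of the 3 samples was 1 oligonucleotide array. All 3 are titled "Multiple Organs, adrenal medulla", and whether the first words mean that tissues were pooled is not stated. Of these, 2 came from rats kept in the cold for 1 day (arrays a and b) and 1 from rats kept in the cold for 7 days. Both groups were thus cold-exposed, and the files used here hold no unexposed group. The sources used here do not give strain, sex, age, temperature, the number of animals per array, or whether arrays a and b came from separate animals.

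Splicing removes introns from pre-mRNA in the spliceosome, a complex built on each intron from small nuclear ribonucleoproteins (snRNPs), each an RNA with a ring of Sm proteins and its own partners. SR proteins mostly favour the use of nearby exons, and hnRNP proteins, which coat nascent RNA, often oppose them. Elavl and Celf proteins bind AU-rich and GU-rich sequence and also act on mRNA stability and translation. Elavl2, Elavl3 and Elavl4 mark neurons and related neuroendocrine cells, such as the chromaffin cells of the adrenal medulla, and Celf3, Celf4 and Celf5 are expressed mainly in the nervous system. Elavl1, Celf1 and Celf2 are expressed more widely.

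One array stood apart. Across all 31042 gene probe sets, the Spearman correlation of the 7-day array with 1-day array b was 0.939, but 1-day array a stood at 0.664 with array b and 0.684 with the 7-day array. For beta-actin, the control probe set at the 3′ end over that at the 5′ end, a ratio used as a measure of RNA integrity, gave 231 on array a, 6.11 on array b and 8.87 at 7 days. The same ratio for GAPDH differed less, at 5.02, 1.79 and 1.87. Group medians are therefore given against each 1-day array, while single counts and probe set comparisons mostly use array b. The part of RNA quality in the results was not tested. Markers of chromaffin cells (12 of 13 measured) and of the adrenal cortex (7 of 9) all lay above the median gene, so RNA of both was present. All 7 cortex markers read higher on the 7-day array than on array b, by 0.34 to 0.57 on the log2 scale, while 6 of 12 chromaffin markers did. Of those 6, Th, Dbh, Pnmt, Chga and Chgb were about as bright as most cortex markers and read 0.20 to 0.35 higher. With quantile normalisation the cortex median fell from 0.38 to 0.17 and the chromaffin median from -0.01 to -0.22. Of the other marker lists, 3 of 4 Schwann, 3 of 3 endothelial and 1 of 7 macrophage and lymphocyte markers read higher than on array b, with medians of 0.09, 0.09 and -0.27. No marker measured was listed at 0, and the part of these cell types in the results was not tested. In such bulk samples, fewer cells of a type and less RNA per cell cannot be told apart.

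Probe sequences were not used here. RefSeq promoters (assembly GRCr8) were matched for 63 of the 69 members, as 67 windows of the 250 bases before an annotated start. They are shown as examples of the groups compared below. Member windows were rich in CpG, with a median of 20 against 5 for all promoters. The motif CGGAAG, the core of ETS factor sites, was present on either strand in 63.3% of 30 windows of core spliceosome genes, in 63.6% of 11 SR windows and in 1 of 5 windows of neuronal Elavl and Celf genes, against 13.9% of all 33469 promoters. The motif CCAAT was in 73.7% of 19 windows of hnRNP genes, 36.7% of core windows, 2 of 5 neuronal ones and 34.0% of all promoters. TATAAA was in 0 of the 30 core and 0 of the 5 neuronal windows, 18.2% of SR and 21.1% of hnRNP windows, against 12.9% of all. The GC box (GGGCGG) was in 40% of core, 72.7% of SR, 78.9% of hnRNP and 4 of 5 neuronal windows, against 30.5% of all. With so few windows these shares were not tested between groups. Letter matches describe these windows and show no binding. In the following 4, capitals mark these motifs on either strand, and lower case all other bases. Sf3b5 stands for the core (chr1:9176939-9177188, plus strand, read 5′ to 3′ like the others), Hnrnpc for the hnRNP genes (chr15:27282716-27282965, minus strand), and Elavl4 (chr5:130367664-130367913, minus strand) and Celf3 (chr2:184804841-184805090, plus strand) for the neuronal genes.
Sf3b5: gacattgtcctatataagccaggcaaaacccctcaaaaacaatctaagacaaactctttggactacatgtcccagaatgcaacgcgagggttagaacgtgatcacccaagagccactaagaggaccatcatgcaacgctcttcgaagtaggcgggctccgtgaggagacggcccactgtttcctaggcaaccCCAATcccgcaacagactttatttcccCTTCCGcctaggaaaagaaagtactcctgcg
Hnrnpc: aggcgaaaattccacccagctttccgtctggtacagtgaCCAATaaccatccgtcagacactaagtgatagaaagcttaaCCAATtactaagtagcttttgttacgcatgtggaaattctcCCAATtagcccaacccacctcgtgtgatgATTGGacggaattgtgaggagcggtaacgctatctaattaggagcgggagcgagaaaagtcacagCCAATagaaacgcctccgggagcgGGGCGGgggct
Elavl4: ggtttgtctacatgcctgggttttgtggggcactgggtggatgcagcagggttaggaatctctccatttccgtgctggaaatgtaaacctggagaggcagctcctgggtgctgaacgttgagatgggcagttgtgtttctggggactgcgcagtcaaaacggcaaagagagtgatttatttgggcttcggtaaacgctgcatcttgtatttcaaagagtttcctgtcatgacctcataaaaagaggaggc
Celf3: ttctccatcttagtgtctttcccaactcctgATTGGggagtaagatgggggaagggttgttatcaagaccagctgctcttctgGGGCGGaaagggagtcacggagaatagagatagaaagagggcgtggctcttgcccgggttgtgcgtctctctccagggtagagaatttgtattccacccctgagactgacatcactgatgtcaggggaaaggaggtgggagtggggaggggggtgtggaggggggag
The Hnrnpc window holds 5 copies of CCAAT and 0 of CGGAAG, the Sf3b5 window 1 of each, and the Elavl4 window 0 of either. The Elavl4 window also holds 0 of GGGCGG, which 4 of 5 neuronal windows hold. All the windows shown are poorer in CpG than the median of their group. Sf3b5 holds 11 against 15 for the core, and Hnrnpc 14 against 23 for hnRNP genes. Elavl4 holds 6 and Celf3 5, against 18 for neuronal windows (5 to 35).

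The comparison between both exposure times asked whether splicing genes read differently after the longer stay. Values are log2(intensity + 16), so a difference of 1 is a doubling and differences of dim probe sets are shrunk. Limma was fitted on all 3 arrays over the 15521 probe sets at or above the median mean value, and the chosen probe set of 65 of the 69 members was among them. The 4 not tested were Srsf3, Srsf7, Celf5 and Srsf7-ps4. No member passed: 0 of 65 had a Benjamini-Hochberg adjusted p under 0.05, as had 0 of all 15521 probe sets (0%), and at an unadjusted p under 0.05 limma gave 0 members and 70 probe sets (0.451%). The lowest unadjusted p of a member in limma was 0.0880, for Srsf6. The fit has 1 residual degree of freedom, from the 1-day pair, and assumes that the lone 7-day array varies like that pair. Its SE values come from that spread pooled over probe sets of like signal, not from each gene alone.

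By size, Srsf3 and Srsf7 were the members at least 2-fold above both 1-day arrays, against 0.872% of all genes, and 0 lay 2-fold below both, against 3.95%. Both encode small SR proteins. Srsf3 read 64.6 on array a, 158 on array b and 446 at 7 days. In the same order, Srsf7 read 80.8, 228 and 511. Both were dim, 2 of the 10 members below the signal cutoff defined next, where 1.7% of all genes were 2-fold above both, and Srsf7 fell short of 2-fold against array b with quantile normalisation (0.71) or with each array centred on its median (0.93). Among the 59 members at or above the median gene by mean value on array b and the 7-day array (an intensity of about 1575), 0 lay 2-fold beyond both 1-day arrays. That cutoff, called the signal cutoff here, is used below to mark dim genes.

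Against 1-day array b alone, the splicing genes as a whole read at nearly the same level on the 7-day array. The median log2 difference over the 69 members was 0.04, the same as the 0.04 over all genes. It was 0.01 over the 59 past the signal cutoff, where the median of all 7109 such genes was -0.02. Of the 69, 39 read higher and 30 lower, with 53.8% of all genes higher and 46.2% lower. At least 2-fold above array b were 3 members, Srsf3, Srsf7 and Srsf7-ps4, against 9.98% of genes, and 2-fold below it 0, against 4.68%. Median centring, which shifts every gene by the same amount, moved the median of all genes from 0.04 to -0.15, and with it the number of members higher from 39 to 19. Within 0.5 of array b lay 61 of 69, against 70.4% of genes. Past the cutoff, 31 of 59 read higher, against 46.5% of such genes, and 0 lay 2-fold above or below array b, against 0.127% and 0.211%. Of the 59 members past the cutoff, 57 (96.6%) lay within 0.5 of array b, against 93.5% of all genes past it. The exceptions were Prpf38b and Celf4. This sets 1 array against 1 array, so it has no test. Against 1-day array a the picture differed: the median was 0.38 over the 69 members, with 50 higher (43.1% of all genes were) and 19 lower, beside a median of -0.24 over all genes. Past the cutoff it was 0.56 for members and 0.34 for all genes.

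**Figure D1:**
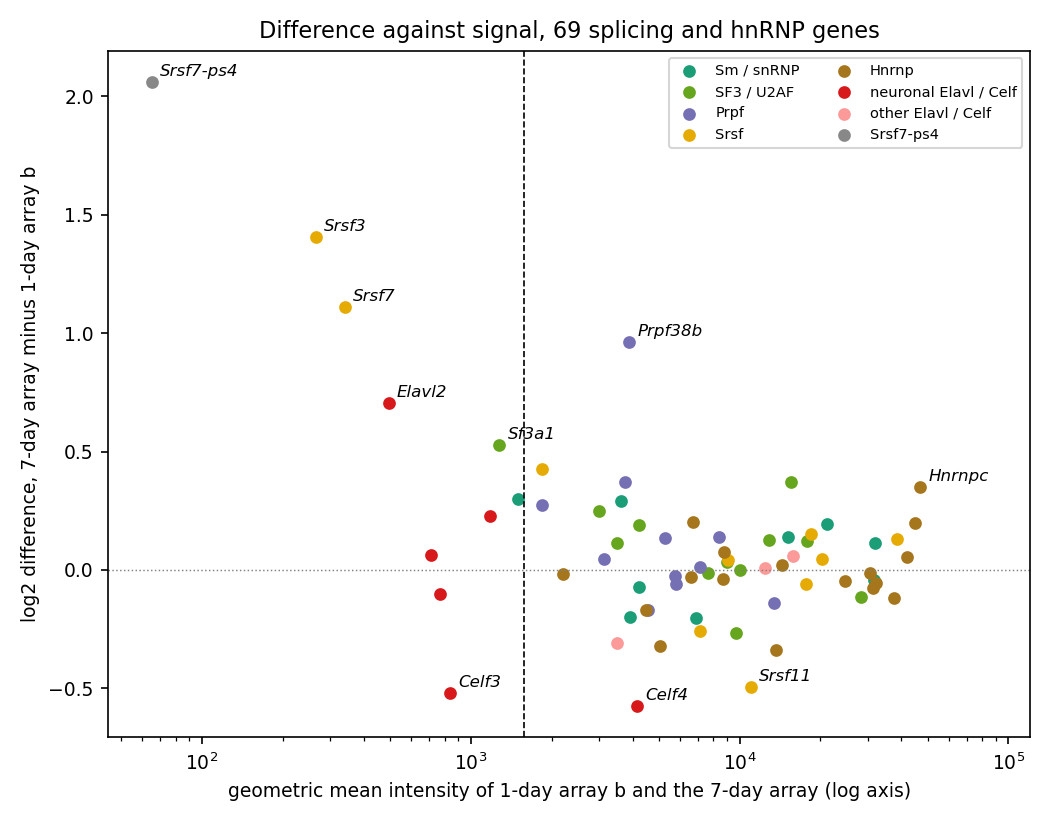
Log2 difference of the 7-day array from 1-day array b (vertical axis) against the geometric mean intensity of those arrays (horizontal log axis) for the 69 genes, 1 point per gene, coloured by role. The dashed line is the signal cutoff at 1575. To its right all points but Prpf38b (0.96) and Celf4 (-0.58) lie within 0.5 of 0, and the widest points, Srsf7-ps4, Srsf3 and Srsf7, lie to its left.

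Sm and snRNP proteins, the shared ring and own partners of the snRNPs, were measured by 9 genes and spanned -0.20 to 0.30 against array b. Snrpb, an Sm ring protein, read 10881 on array a, 19749 on array b and 22609 on the 7-day array. Snrpd1, another ring protein, read 6422, 3261 and 3996, so that array a was the highest for it and the lowest for Snrpb. Snrpa, a protein of the U1 snRNP that recognises 5′ splice sites, was the highest of the role against array b and read 3830.2, 1357 and 1672. Snrpf, a ring protein, was the lowest, with 3500, 7419 and 6449. The 7-day value lay between the 1-day values for Snrpd1, Snrpa and Snrpf and above both for Snrpb. Over the 9 genes the median was 0.11 against array b and 0.32 against array a.

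The SF3 and U2AF genes encode the proteins that bring the U2 snRNP to the branch point. Of these 12 genes, 8 read higher and 4 lower than on array b, with a median of 0.12 (0.33 against array a). Sf3b5, a small subunit of the SF3B complex, read 4910.1, 13681 and 17710 on array a, array b and the 7-day array. It was above both, by 1.85 and 0.37, and limma gave 1.11 ± 0.96 (SE) against the 1-day mean (adjusted p = 1.00). Sf3a1, a subunit of SF3A below the signal cutoff, stood highest at 0.53, with 1435, 1061 and 1537. Sf3b1, whose protein holds the branch point, read 14113, 29310 and 27115, and all 3 of its probe sets were slightly lower than on array b (-0.20 to -0.11). U2af1 and U2af2 form the dimer that recognises the 3′ splice site. U2af1 read 45834, 17141 and 18676, and U2af2 read 6819, 10668 and 8876, so their differences from array b were 0.12 and -0.27. With quantile normalisation they were 0.12 and -0.21.

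The Prpf genes encode proteins of the U4/U6.U5 tri-snRNP and of the complexes that activate the spliceosome. Prpf38b, a relative of the tri-snRNP protein gene Prpf38a, was the member furthest from array b past the signal cutoff. It read 5269 on array a, 2787 on array b and 5447 on the 7-day array, so the 7-day array was 0.96 above array b and 0.05 above array a. Limma gave 0.51 ± 0.91 (SE, adjusted p = 1.00), and its other probe sets, both below the cutoff, stood at 0.76 and -0.23. Prpf38a was the lowest of the role at -0.17. Prpf4, of the U4/U6 snRNP, read 2867, 3306 and 4287, above both 1-day arrays. Prpf8, the scaffold of the catalytic core, read 4576, 14114 and 12825. Prpf19, a ubiquitin ligase that helps activate the spliceosome, read almost alike on the 3 arrays, at 7123, 7124 and 7182. Prpf19 thus did not follow the shift between the 1-day arrays that Prpf8 showed. The 11 Prpf genes had a median of 0.05 against either 1-day array, and of 0.00 between arrays a and b.

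Of the 10 SR genes, 7 read higher and 3 lower than on array b, with a median of 0.09 (0.74 against array a). Srsf11 was the lowest, at 52155 on array a, 13081 on array b and 9276 on the 7-day array. It was below both 1-day arrays, by 2.49 and 0.50 log2 units, and its second probe set agreed in sign against array b (-0.39) but not against array a (0.57). Limma gave -1.49 ± 0.99 (SE, adjusted p = 1.00). Srsf6 showed the widest gap between the 1-day arrays of any member past the signal cutoff, with 1762 on array a, 17972 on array b and 17245 on the 7-day array. Srsf1, the founding SR protein gene, read 9605, 17446 and 19373, and Srsf2 read 47206, 36719 and 40180.3. Each of these has a second probe set of opposite sign against array b, -0.23 for Srsf1 and -0.32 for Srsf2. Srsf5 read 12501, 19994 and 20645, and Srsf10, an SR protein that can also repress splicing, read 1838, 1584 and 2136. Srsf10 was above both 1-day arrays on that probe set, while its 4 others ran from -1.43 to 0.51 against array b. The pseudogene Srsf7-ps4 read 478, 26.4 and 161, a dim signal that put it highest of all 69 against array b, at 2.06.

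The hnRNP genes stayed close to array b. All 17 lay within 0.35 of it, with 6 higher and 11 lower and a median of -0.03 (0.00 with quantile normalisation). Against array a it was 0.86. Hnrnpc, whose protein binds uridine tracts of introns, was the highest and read 30751 on array a, 41589.7 on array b and 52958 on the 7-day array. Its difference from array b was 0.35, and it was 0.30 with quantile normalisation and 0.31 with the trend removed. Hnrnpdl, a relative of Hnrnpd, was the lowest of the group at -0.34, with 10691, 15349 and 12144, and its 3 probe sets all read lower than on array b. Hnrnpul1 followed at -0.32, with 3646, 5659.8 and 4532. Hnrnpa1, which opposes SR proteins at many exons, read 8034, 14314 and 14509.5, and Hnrnpa2b1, its close relative, read 6984, 32210 and 30573. Hnrnpu, a nuclear scaffold protein gene, read 20265, 39208 and 36092, and Hnrnpl, which binds CA repeats, read 6526, 25116 and 24299.9. On the chosen probe sets of these 4 genes the 7-day value lay within 0.12 of array b and 0.83 to 2.13 above array a. Other probe sets differed: against array a, those of Hnrnpa2b1 stood at -0.04, -0.03 and -0.08, and those of Hnrnpa1 at 1.30 and -1.21. Those of Hnrnpu stood at 0.79 and 0.64, and Hnrnpl has 1 probe set.

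Most hnRNP genes parted in the same direction between the 1-day arrays, as did most SR genes. Of all 69 members, 21 read higher on array a than on array b, against 58.1% of genes, with 7 at least 2-fold higher, against 34.3% (past the signal cutoff 3 of 59, against 6.75%), and 17 at least 2-fold lower, against 18.7% (past the cutoff 15 of 59, or 25.4%, against 28.5%). Of the 17 hnRNP genes, 16 read lower on array a than on array b, while 41.9% of all genes and 64.5% of the genes past the signal cutoff did. All 17 hnRNP genes were past it. Their median, array a minus array b, was -0.89, beside -0.38 for all genes past the cutoff. At least 2-fold lower were 7 of 17, where 28.5% of genes past the cutoff were. Hnrnpm, the exception, stood at 0.03. The SR genes were near this, with a median of -0.77, 7 of 10 lower and 4 at least 2-fold lower, the dim Srsf3 and Srsf7 among them. Core genes, defined below, stood at -0.21. The hnRNP genes were also brighter, with a median log2 level of 13.8 on array b and the 7-day array, against 12.3 for genes past the cutoff. The part of signal was not tested. The choice of probe set and the cutoff both use array b, and so favour values that are high there relative to array a. Among the 11 hnRNP genes with 1 probe set, where nothing was chosen, 10 read lower on array a, with a median of -1.48. Of the 14 hnRNP probe sets not chosen, 10 read lower, with a median of -0.32, near the -0.38 of all genes past the cutoff. Hnrnpa1, Hnrnpdl, Hnrnpa3 and Hnrnpa2b1 each had one higher, at 0.94, 0.65, 0.59 and 0.03. These 2 counts were added after the values were seen, and the same counts were not made over all genes. The part of the choice of probe set was not tested. Quantile normalisation gave the hnRNP genes a median of -0.81 and centring -2.28, where the median of all genes moved from 0.30 to -0.14 and -1.09.

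**Figure D2:**
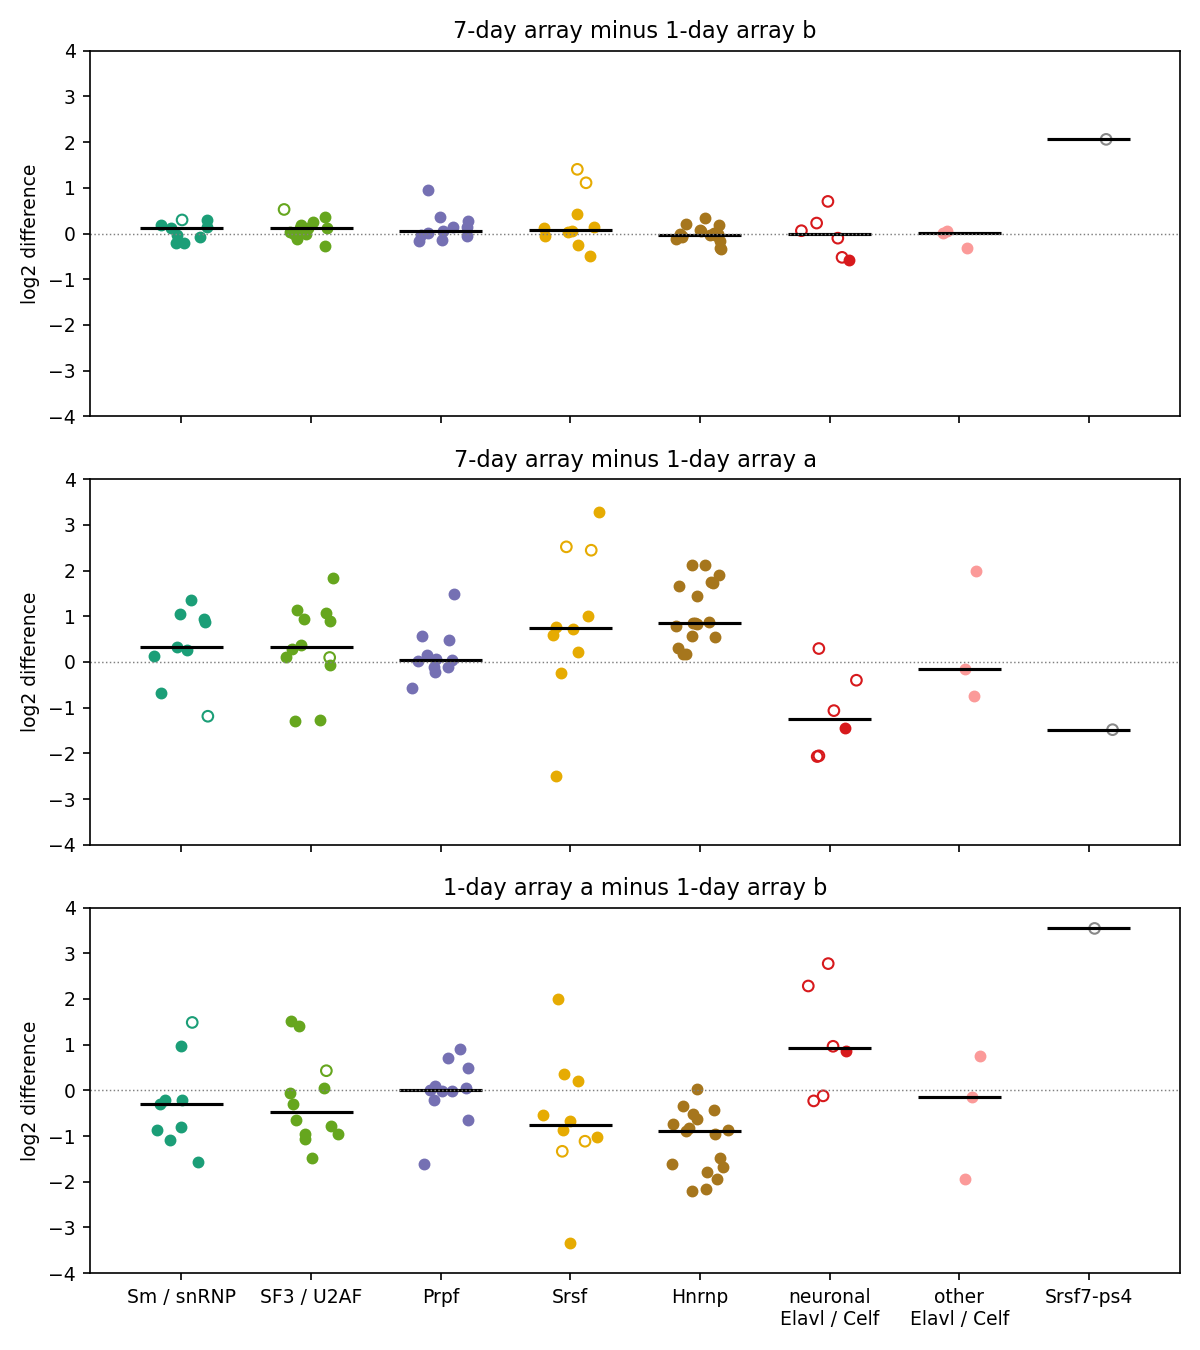
Log2 differences between arrays for each of the 69 genes, by role, as points with the median as a black line. Filled points are past the signal cutoff and open points are below it. Against 1-day array b the medians lie between -0.03 and 0.12 for every role but the lone pseudogene. Against 1-day array a, hnRNP genes lie above 0 in all 17 cases and neuronal Elavl and Celf genes below 0 in 5 of 6. All 17 hnRNP genes but only 1 of the 6 neuronal genes are past the cutoff. Of all genes past it 4557 of 7109 lie above 0, and of those below it 5540 of 7108 lie below 0.

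Neuronal Elavl and Celf genes were mostly dim, with 1 of 6 past the signal cutoff, Celf4. Celf4 read 9279 on array a, 5069 on array b and 3396 on the 7-day array. It was below both 1-day arrays and was the lowest of the 69 against array b, at -0.58, which stayed between -0.76 and -0.46 under the scaling alternatives. Limma gave -1.01 ± 0.92 (SE, adjusted p = 1.00). Celf3 read 924, 1006 and 696, also below both, at -0.52 against array b. Its second probe set gave the opposite, at 1.71, so no direction is settled for Celf3. Celf5 read 593, 699 and 731, an order within 0.29 on the log2 scale.

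The neuronal Elavl genes, whose proteins stabilise AU-rich mRNAs of differentiating neurons, read highest on array a. All 3 were below the signal cutoff, where 80.7% of all genes read higher on array a than on array b. Elavl2 read 2729 there, 386 on array b and 638 on the 7-day array. Elavl3 read 5353, 1087 and 1277, and Elavl4, also known as HuD, read 1570.4, 797 and 742. Against array b these were 0.70, 0.23 and -0.10, with no shared direction. All 3 probe sets of Elavl2 read higher at 7 days than on array b, by 0.03 to 1.55, while the pair for Elavl3 stood at 0.23 and -0.31.

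**Figure D3:**
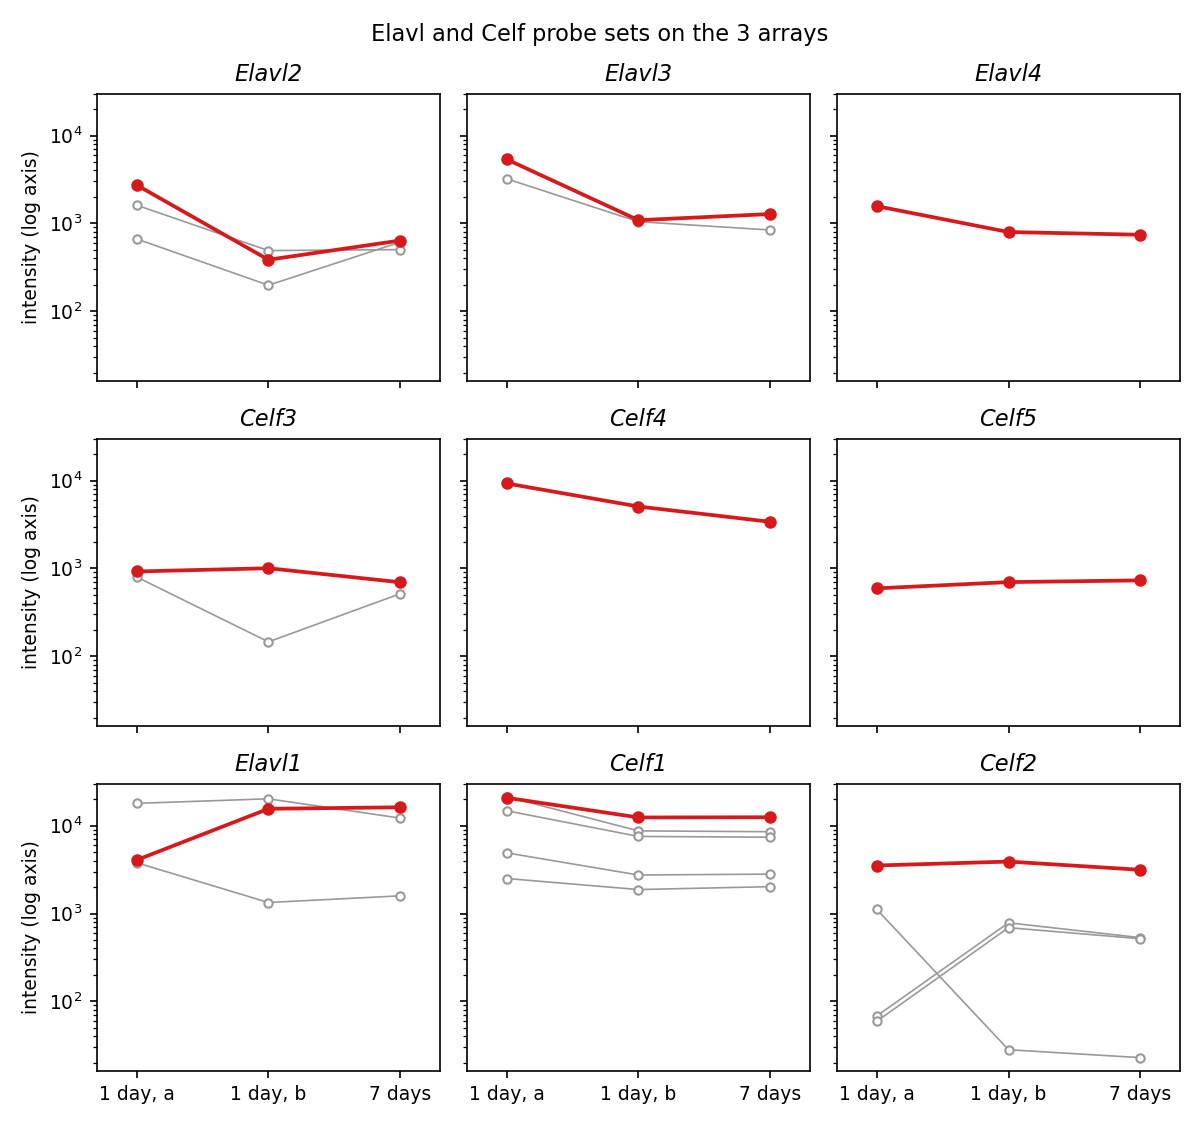
Intensity (log axis) of every Elavl and Celf probe set on the 3 arrays, with the probe set chosen for the gene in red and the others in grey. The top 6 panels are the neuronal genes. Elavl2, Elavl3 and Elavl4 are highest on 1-day array a. They are below the signal cutoff, where 80.7% of all genes are higher on array a than on array b. Celf4 is lowest on the 7-day array, and the probe sets of Elavl1, Celf2 and Celf3 do not run alike.

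The widely expressed relatives were brighter. Elavl1, also known as HuR, read 4064, 15564 and 16190.4 on its chosen probe set, 0.06 above array b. A second probe set of almost the same mean read 17940.3, 20212 and 12189.5, which is -0.73 against array b and below both 1-day arrays. Elavl1 is thus the member for which the choice of probe set turns the value most among probe sets past the cutoff. Celf1 read 20765, 12392 and 12469, and its 5 probe sets agreed within -0.03 to 0.11 against array b. Celf2 read 3520, 3902 and 3145, with all 4 probe sets lower than on array b, by -0.55 to -0.18.

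The core spliceosome genes (32 genes of the Sm and snRNP, SF3, U2AF and Prpf roles) were then set beside the 6 neuronal Elavl and Celf genes. Against the mean of the 1-day arrays, the median was 0.14 for the core and -0.63 for the neuronal genes, with -0.05 over all genes. That gap of 0.77 was 0.36 with quantile normalisation (core 0.08, neuronal -0.28). With each gene's probe sets averaged it was 0.48 (0.06 and -0.42). It also depended on 1-day array a. Without array a the medians were 0.11 and -0.02, a gap of 0.13, and without array b they were 0.20 and -1.26, a gap of 1.46. Between the 1-day arrays themselves, array a minus array b, the core stood at -0.21 and the neuronal genes at 0.92, beside 0.30 over all genes. With quantile normalisation these were -0.07, 0.46 and -0.14. Median centring, a shift common to all genes, put the neuronal median at -0.48, so its sign depends on the scaling. Signal moved with this difference, and its part was not tested: genes below the signal cutoff had a median of 1.49 between arrays a and b (80.7% higher on array a), and genes past it -0.38. Of the core genes 30 of 32 were past the cutoff. The cutoff itself uses array b. Celf4, past the cutoff, read 0.87 higher on array a than on array b. Of the markers of neurons (7 of 7 measured, 0 of them listed at 0), 5 read higher on array a than on array b and 2 lower. The 4 past the cutoff were divided, with Nefh at 1.16, Map2 at 0.11, Nefm at -0.68 and Tubb3 at -1.22. Over all 7 the median was 1.16 for array a minus array b and 0.16 for the 7-day array minus array b. The summed intensity of these markers was 32114, 24864 and 24112 on array a, array b and the 7-day array. Their part in the result was not tested. The core and neuronal genes were compared as a description, and no p is given for the gap.

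Counted by place, the 7-day array read above both 1-day arrays for 28 of 69 members (40.6%) and below both for 8 (11.6%), against 22.7% and 25.8% of all genes. Among genes past the signal cutoff those shares were 40.7% and 10.2% for members and 30.4% and 19.8% for all genes. With median centring, the counts of members were 15 above and 3 below, and with each gene's probe sets averaged they were 19 and 11. The shares of all genes were not counted under these settings. The choice of probe set uses array b and the 7-day array, and so favours values high there relative to array a. Of the core, 14 of 32 were above both and 3 below both, namely Sf3b2, Prpf39 and Prpf4b, each by at most 0.12 against either. Of the neuronal genes, 1 of 6 was above both (Celf5) and 3 were below both (Celf3, Celf4 and Elavl4).

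Probe sets of the same gene showed how far a single value can be read. Of the 27 members with several probe sets, 18 had probe sets of opposite sign for the 7-day array against array b. The median range within a gene was 0.44, against 2.24 for array a minus array b. With probe sets past the signal cutoff only, 10 of 16 genes had opposite signs but the median range was 0.23, and 1.68 between the 1-day arrays. Members whose probe sets agreed included Snrpd1 (0.29 and 0.46), Sf3b1, Srsf11 and Celf2. U2af1l4, a U2af1 relative, had the widest range, 0.11 on the chosen probe set and -2.24 on a dim one. Prpf3, Prpf18, Prpf4b, Sf3b2, Hnrnpa3 and Hnrnpu also had both signs, with chosen values of 0.14, 0.05, -0.06, 0.00, 0.20 and -0.12 against opposite extremes of -1.18, -0.06, 0.23, 0.06, -0.09 and 0.02. For U2af2 the range ran from -1.54 to 0.09 and for Hnrnpa2b1 from -0.43 to 0.00. Of the 121 probe sets, 1 has the suffix that marks probes shared with other transcripts and 4 the one that marks several transcripts of a gene. The Hnrnp and Srsf families have processed pseudogenes, and cross-hybridisation was not tested.

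**Figure D4:**
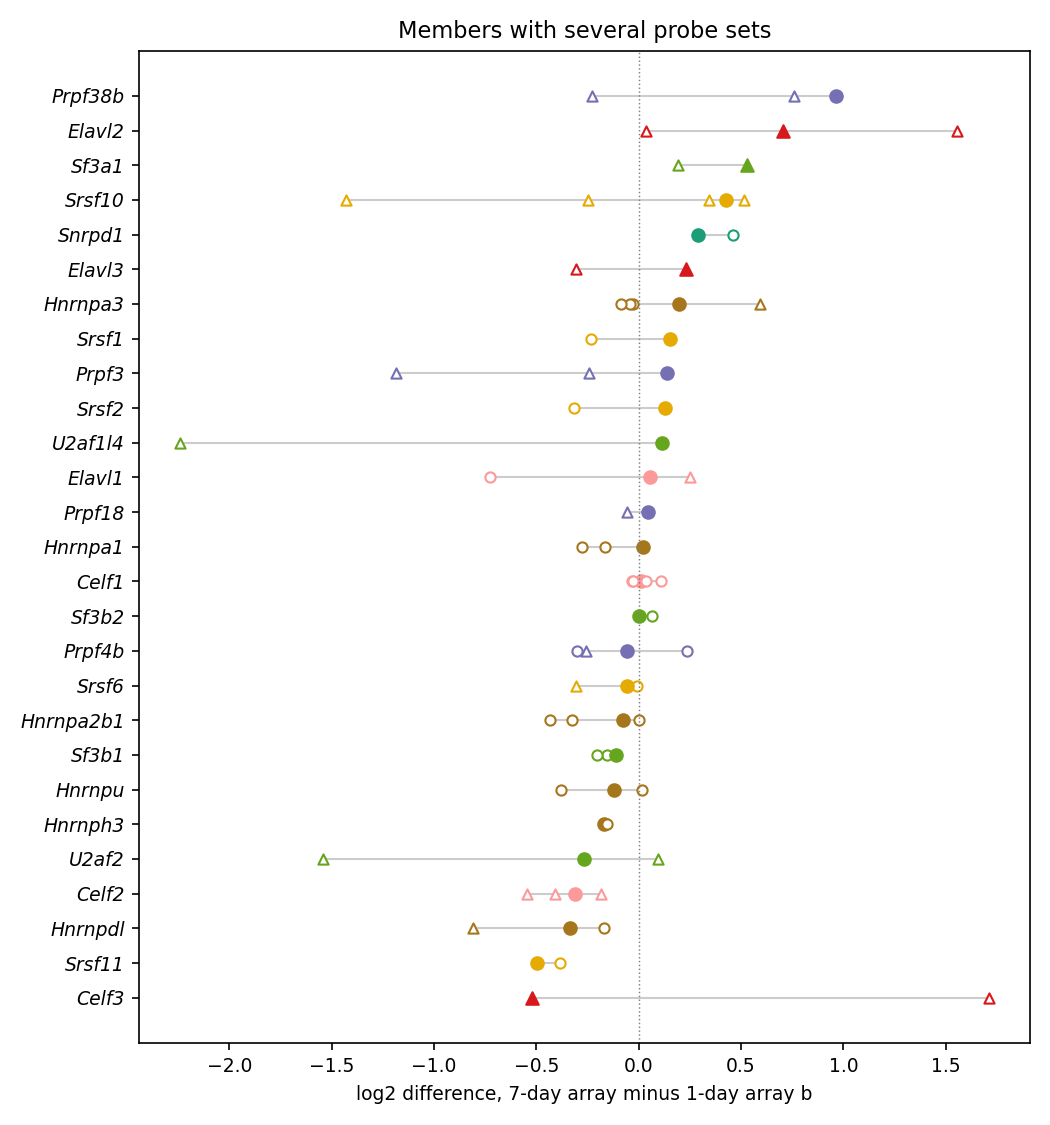
Log2 difference of the 7-day array from 1-day array b for each probe set of the 27 genes with several, 1 row per gene, with colours for role as in the plot of difference against signal. Filled symbols are the chosen probe sets, circles are past the signal cutoff and triangles are below it. The widest rows, such as U2af1l4 and Celf3, include triangles, while Elavl1 spans -0.73 to 0.06 on circles.

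Other genes of the pathway, from 3 lists by function, had medians near 0 against array b, and limma passed 0 of the 55, 9 and 24 that it tested in the 3 lists, with 0 at an unadjusted p under 0.05. Over all genes 53.8% read higher than on array b, and over those past the signal cutoff 46.5%. Of 57 other spliceosome proteins, 38 read higher and 19 lower than on array b, with a median of 0.04 (0.38 against array a). Past the cutoff were 53 of these 57, and 9 of 10 and 22 of 32 in the lists that follow. Rbm25, an exon-inclusion factor linked to the U1 snRNP, stood at 0.62 (1228, 2260 and 3471 on array a, array b and the 7-day array). Rbm22, which contacts the catalytic RNA, stood at -0.93 (1735, 2329 and 1211). Of 10 SR protein kinases and relatives, 6 read higher and 4 lower (median 0.02, and 0.40 against array a), and all were within 0.5 of array b. Of 32 other splicing regulators, 18 read higher and 14 lower (median 0.03, and 0.15 against array a). The highest were below the signal cutoff: Rbm24 at 2.13 (1957, 121 and 585), Nova2 at 1.73 (251, 65.5 and 254) and Taf15 at 0.72 (3109.97, 929.7 and 1539). Past the cutoff Nono, a paraspeckle protein gene, was highest at 0.49 (27459, 27559 and 38635). Ptbp1, the repressor of neuronal exons, read 4682, 19963 and 19957, and Khdrbs3 read 13156, 16381 and 12659 (-0.37). The genes named here from this list were chosen after their values were seen.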

How the data were processed

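The authors deposited 1 table of linear probe set intensities for 3 single-colour oligonucleotide arrays. The sources used here do not name the software or the scaling behind it. The 2% trimmed means of the arrays are 2500.66, 2500.99 and 2501.03, so a common scaling appears to have been applied. Probe sets were named from the platform annotation, which can be old. Of 31099 probe sets, 57 controls were left out.

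Values were analysed as log2(intensity + 16). Limma 3.58.1 (R 4.3.3; lmFit and eBayes with an intensity trend, Benjamini-Hochberg adjustment, threshold 0.05) was fitted on all 3 arrays over probe sets whose log2 values average at least 9.60, the median. Its code was checked on simulated data, with noise set from the spread between array b and the 7-day array. The 1-day pair, which gives the real residual, spread more (SD over all genes 1.83 against 0.82). That simulation thus cannot show what limma could detect in these data. The signal cutoff is the median over 14217 genes of the mean on array b and the 7-day array (10.64). Other values are differences between single arrays without a test. P-values and SE values rest only on the spread of the 1-day pair, which may be technical. In the main fit that spread was pooled over probe sets along the intensity trend, so an SE is not the gene's own. Prpf19, almost alike on both 1-day arrays, had an SE of 0.94. Precision is limited by how few arrays there are.

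The members and the gene lists were chosen with earlier results of these data known. Genes were named by rule: the 6 highest and 6 lowest against array b past the cutoff, the extremes of each role, every Elavl and Celf gene, a set of well-known members, genes 2-fold beyond both 1-day arrays, and genes with probe sets of opposite sign. Hnrnpk, in that set, had no probe set of its own. Alternatives were pseudocounts of 1 and 64, quantile normalisation, median centring, trend removal by loess (span 0.5), other filters, limma without a trend, averaging a gene's probe sets, current symbols and leaving out each 1-day array. Promoters are RefSeq windows of GRCr8, searched on both strands for the motifs spelled out above. Figures were drawn with matplotlib 3.10.9 in Python 3.11.15.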

Additional observations from a re-analysis of the deposited data

How the results depend on the processing

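With 1 array at 7 days and 2 at 1 day, these values describe 3 arrays, and dim probe sets are the least certain. Limma passed 0 probe sets under every setting run (pseudocounts, scalings, filters and no trend), and leaving out a 1-day array left no residual degree of freedom, so it had no value there. No paired analysis was possible because the 7-day group has 1 array and shares fewer than 2 replicate labels with the 1-day group. Members at least 2-fold above both 1-day arrays numbered 2. They numbered 1 with a pseudocount of 64, quantile normalisation or median centring, and 0 past limma's filter or the 75th percentile. Without array a, 3 members were 2-fold above and 0 below, against 9.98% and 4.68% of all genes. Without array b these were 18 and 9, and the shares of all genes were not counted there. Median centring gave 15 members above both and 3 below both, and averaging probe sets 19 and 11, where the main counts were 28 and 8. Shares of all genes were not counted under median centring or averaging. Leaving out array a gave 39 members above and 30 below, against 53.8% and 46.2% of all genes. Leaving out array b gave 50 and 19, where 43.1% of all genes read above array a. Members higher than on array b numbered 39, 19 with median centring and 22 past the 75th percentile. Median centring moved the core median against the 1-day mean from 0.14 to 0.65 and the members' median for array a minus array b from -0.44 to -1.83. Leaving out a 1-day array gave core medians of 0.11 to 0.20, neuronal medians of -1.26 to -0.02 and gaps of 0.13 to 1.46. Quantile normalisation gave a gap of 0.36, and averaging probe sets 0.48. The sign against array b was the same under quantile normalisation, median centring and trend removal for 43 of 69 members. For hnRNP genes the median for array a minus array b was -0.89, -0.87 with all probe sets averaged and -1.48 for genes with 1 probe set, alternatives chosen after seeing the data. Median centring moves all genes alike, and the other causes were not tested.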
